A study of Mus musculus with 9 samples.

Results

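The genes described are those of the deposited table whose symbols begin like an interleukin, tumour necrosis factor (TNF) family, chemokine, interferon, colony-stimulating factor, TGF-beta, integrin or CD antigen gene. Such symbols are carried by 50 of the 2402 genes listed. Il1b, Csf1r, Csf3r and Itga2b were left out, which leaves 46 genes. The study sequenced messenger RNA of 9 samples sorted from the bone marrow of male C57BL/6 mice of the FlkSwitch cross, in which all groups carry a Flt3-driven Cre and the mTmG reporter. Recombination turns a cell and its descendants from red (Tom+) to green (GFP+) for good, so the colour records past activity of the Flt3-driven Cre and not the cell type itself. The labels give 3 samples of GFP+ megakaryocyte progenitors (MkP) from mice of 3 months. From old mice they give 2 samples of GFP+ MkP, 2 of Tom+ MkP and 2 of Tom+ haematopoietic stem cells (HSC). The old mice were 18 to 20 months of age in one label field and 20 in another. MkP were sorted as Lin- cKit+ Sca1- CD150+ CD41+ cells and HSC as Lin- cKit+ CD150+ Flk2- Tom+ cells, with a Sca gate that the labels write as Sca+-. Whether samples of a group came from separate animals is not stated in the labels.

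No row of the table is named, and none of the 9 could be tied to a sample or a group. Libraries 1 to 9 are called after the order of the rows, which carries no other meaning. No mean, standard deviation or p-value was computed, and old and young or red and green cells were not compared. The genes are described by how libraries 3 and 4, the 2 with at least 1000 normalized counts of Ly6a, stood to the other 7. Ly6a encodes Sca1, the antigen whose absence was required in the sort of MkP. For HSC the Sca gate is ambiguous in the labels. It had 4256 normalized counts in library 3 and 5772 in library 4, and at most 187 in the others, where library 9 was the nearest below the threshold. Of the stem cell marker list 8 genes other than Ly6a were measured, and their summed level was 15101 and 12721 in libraries 3 and 4, against 152 to 1519 elsewhere. The summed level of 11 measured megakaryocyte markers was 3871 and 9577 there, against 86534 to 164453 elsewhere. The summed level of 4 erythroid markers was 290 and 309 there, against 5788 to 8530. Most of it was Aqp1, at 280 and 294 against 5422 to 8514. Ermap lay below the other libraries by less than 2-fold, and Rhd and Add2 overlapped with them. The summed level of 3 endothelial markers (Emcn, Cldn5 and Tie1) was 3946 and 4013, against 459 to 1725. The summed level of 3 T and natural killer cell markers was 723 and 1180, against 2236 to 27179. Within that list Nkg7 had 185 and 667 against 2153 to 27162, whereas Klrb1c had 493 and 469 against 0 to 68.2. The only measured mast cell gene, Fcer1a, overlapped, at 0 and 3.43 against 0 to 103. The part of such cells in the values that follow was not tested. Libraries 3 and 4 libraries were chosen by a measured value, are no labelled group and are not replicates, so what follows describes libraries and tests nothing. In bulk samples such as these, fewer cells of a type and less RNA per cell cannot be told apart.

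The genes encode the surface proteins and secreted signals by which blood cells sense and hold on to their surroundings. Many cytokine receptors, though not all, are chains without enzyme activity of their own that pass a signal to JAK kinases and STAT factors. Several of them share a common chain. TNF receptors signal through adaptors to NF-kB, integrins bind matrix and other cells as pairs of an alpha and a beta chain, and tetraspanins organise such receptors in the membrane. In the bone marrow these proteins are widely used to sort stem cells from progenitors.

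A level of 10 normalized counts was reached in 2 or more libraries by 45 of the 46 genes. Of these, 8 passed only through libraries 3 and 4, as fewer than 2 of the other 7 reached that level. For these genes the filter itself favoured high values in libraries 3 and 4. A gene was counted as higher when the lower of libraries 3 and 4 was at least 2-fold above the highest of the other 7, and as lower in the mirror case. Values under 3 reads were raised to 3 reads, which is 2.17 to 5.89 normalized counts depending on the library. By this rule 21 of the 45 genes were higher, 5 were lower and 19 had a smaller gap or overlapped. Over all 2341 genes of the table that passed the same filter, 24.0% were higher and 11.8% were lower. The share of higher genes was 46.7% among the 45, and that of lower genes 11.1%, close to the table as a whole. Of the 21 higher genes, 6 were among those that passed the filter only through libraries 3 and 4. Without such genes 15 of 37 were higher, against 394 of 2133 genes of the table. With any gap counted, 33 of the 45 lay above the other 7 in both libraries, against 51.0% of the table, and 6 lay below, against 40.4%. The values of 6 genes overlapped, against 8.67% of the table. Over all 9 libraries 43 genes ranged at least 4-fold, against 66.5%.

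The counts moved with the scaling of the libraries. With reads scaled to the table total, which shifts library 3 by 0.65 and library 4 by 0.50 on the log2 scale relative to the median library, 28 genes were higher and 1 lower. With median-of-ratios scaling over the table, which shifts them by -0.60 and -0.33, 11 were higher and 6 lower. The whole table moved too, from 35.6% higher and 6.64% lower under the first to 16.3% and 18.5% under the second. No gene counted as higher or lower changed its direction under either. The 11 genes that were higher under all 3 scalings were Il2rg, Il12rb1, Csf1, Tnfrsf26, Cd72, Tnfaip8, Tnfrsf1a, Il18bp, Tgfb3, Il4ra and Il18, and the gene that was lower under all 3 was Il12a.

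**Figure D1:**
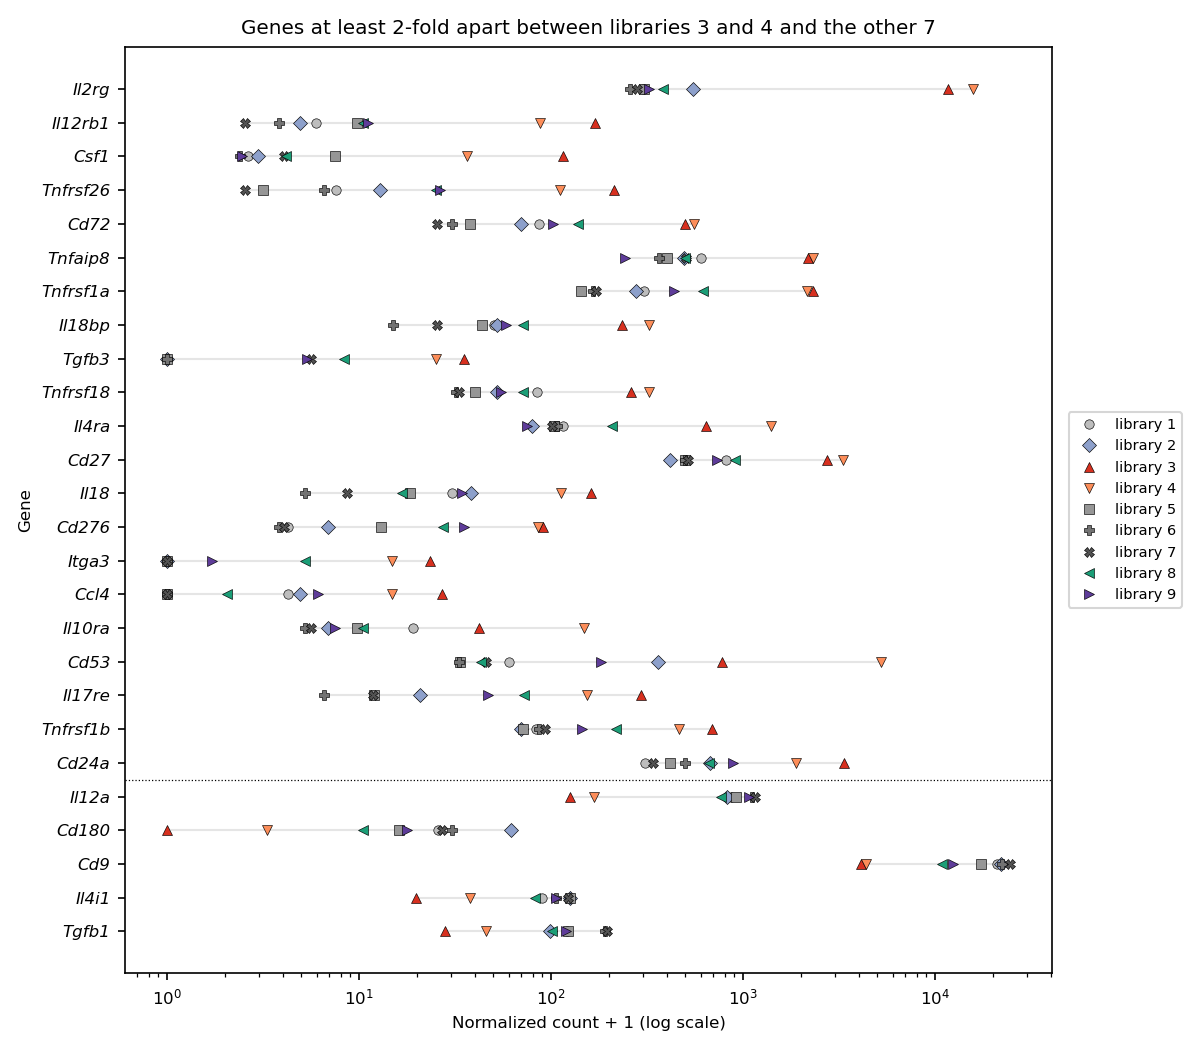
Normalized counts with 1 added, on a log axis, of the 21 genes higher (above the dotted line) and the 5 genes lower (below it) in libraries 3 and 4. Each symbol is 1 library, and the 2 red and orange triangles (libraries 3 and 4) stand apart from the other 7 symbols in each line, most widely for Il2rg with 11613 and 15769 against at most 544.

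The bases before the transcription start are shown for 4 genes, to set the sequences of genes with wide gaps in both directions beside each other. They are the 2 higher and the 2 lower genes with the widest gaps among those with a RefSeq promoter entry, a highest value of at least 150 and at least 200 bases outside the gene body in GENCODE M21, a rule chosen after the values were seen. The sequences are from RefSeq on GRCm38.p6, the assembly of mm10. Il2rg is shown from chrX:101268256-101268505 and Cd72 from chr4:43454629-43454876, both on the minus strand. Il12a is shown from chr3:68690394-68690643 on the plus strand and Cd9 from chr6:125494792-125495010 on the minus strand. Capitals mark matches on either strand to the letters of 3 factor families that act in stem cells and megakaryocytes. For GATA factors the letters searched were AGATAA and, as the other form, TGATAA. For ETS factors they were GGAAGT. For RUNX factors they were TGTGGT. Of Il12a the first of 2 listed starts is shown.
Il2rg: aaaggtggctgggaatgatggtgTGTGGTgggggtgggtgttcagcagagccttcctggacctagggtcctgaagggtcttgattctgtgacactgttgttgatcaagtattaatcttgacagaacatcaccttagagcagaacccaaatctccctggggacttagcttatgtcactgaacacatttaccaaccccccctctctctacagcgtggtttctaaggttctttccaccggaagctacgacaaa
Cd72: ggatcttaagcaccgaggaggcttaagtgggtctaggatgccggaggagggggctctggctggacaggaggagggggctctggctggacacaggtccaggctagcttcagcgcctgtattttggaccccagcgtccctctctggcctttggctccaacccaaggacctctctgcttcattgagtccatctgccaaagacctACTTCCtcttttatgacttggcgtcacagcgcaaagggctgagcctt
Il12a: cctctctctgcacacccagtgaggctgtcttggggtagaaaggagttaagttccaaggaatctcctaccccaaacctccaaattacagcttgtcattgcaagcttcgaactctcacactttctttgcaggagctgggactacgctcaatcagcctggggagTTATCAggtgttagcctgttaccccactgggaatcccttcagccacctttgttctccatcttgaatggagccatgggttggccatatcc
Cd9: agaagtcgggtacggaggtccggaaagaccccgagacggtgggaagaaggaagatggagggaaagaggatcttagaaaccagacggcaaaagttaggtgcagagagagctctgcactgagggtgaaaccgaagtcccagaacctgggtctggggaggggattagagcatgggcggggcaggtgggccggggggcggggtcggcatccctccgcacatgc
Counted from the RefSeq start, Il2rg had 1 RUNX match at -227 to -222, Cd72 had 1 ETS match at -49 to -44 and Il12a had 1 GATA match at -89 to -84. The printed stretches of Cd72 (248 bases) and Cd9 (219 bases) stop short of that start, at the gene body in GENCODE. The printed stretch of Cd9 held none of these letters. Of the 32851 RefSeq windows of 250 bases, 16.6% held a GATA match, 19.7% an ETS match and 14% a RUNX match. In the windows of 1778 genes of the table these shares were 9.56%, 23% and 10.9%. Among the 14 higher genes with a RefSeq window, 0 held a GATA match, 2 an ETS match and 3 a RUNX match in the full 250 bases. Among the 5 lower genes these numbers were 1, 2 and 0. The STAT letters TTCNNNGAA were in 3 of the 14 and 0 of the 5, against 7.02% of all windows and 7.09% of those of the table's genes. The NF-kB consensus was in 1 of the 14 and 2 of the 5, against 17.6% and 22.3%. A match describes letters and is not evidence of binding.

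Of 9 interleukin genes and their receptors, 7 were higher (77.8%, against 24.0% of the table) and 1 was lower (against 11.8% of the table). Il12rb1 and Il10ra passed the filter only through libraries 3 and 4. Without such genes 5 of 7 were higher, against 394 of 2133 genes of the table. Il2rg encodes the common gamma chain shared by several interleukin receptors. It had 11613 normalized counts in library 3 and 15769 in library 4, and 256 to 544 with a median of 304 in the other 7. The gap of 21.4-fold (95% exact counting interval 19.0 to 24.2) was the widest of all 46 genes, and the other 7 libraries lay within 2.12-fold of each other. The gene is protein-coding and lies on chromosome X from 101264378 to 101268255 in GENCODE M21, where the gene model Gm20489 overlaps it on the same strand. Il4ra, the interleukin-4 receptor alpha chain that pairs with the common gamma chain, had 637 and 1388 in libraries 3 and 4, against 73.9 to 207 with a median of 102. Its gap of 3.08-fold had an interval of 2.62 to 3.65, and library 8 was the nearest of the others. Il10ra, the ligand-binding chain of the interleukin-10 receptor, had 41.3 and 146, against 4.20 to 18.1 with a median of 6.52. This is a gap of 2.29-fold on few reads (interval 1.14 to 4.99).

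Il12rb1 and Il17re, receptor chains for interleukin-12 and for an epithelial member of the interleukin-17 family, were both higher in library 3 than in library 4. Il12rb1 had 169 and 87.0, against 1.54 to 10.1 with a median of 4.92, an 8.57-fold gap (interval 4.81 to 16.4). Il17re had 293 and 153, against 5.59 to 71.3 with a median of 19.6, a gap of 2.15-fold (1.59 to 2.92). Libraries 8 and 9 had 71.3 and 45.6, above the 5.59 to 19.7 of the remaining 5.

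The secreted members of this role went both ways. Il18, an inflammasome-processed cytokine, had 160 and 111 in libraries 3 and 4, against 4.20 to 37.3 with a median of 17.4 (gap 2.98-fold, interval 1.81 to 5.15). Il18bp, which encodes the secreted protein that neutralises it, was higher in the same libraries, at 234 and 324 against 14.0 to 70.2 with a median of 49.2 (3.33-fold, 2.51 to 4.45). Il18bp and Numa1 overlap on opposite strands, so their reads cannot be told apart without strand. Il16, a chemoattractant cytokine precursor, had 4233 and 2469 against 401 to 1249 with a median of 720. Its gap of 1.98-fold (1.86 to 2.11) lay just under the limit. Il12a, the p35 chain of interleukin-12, was the exception, with 124 and 166 in libraries 3 and 4 against 764 to 1157 with a median of 921. The gap of 4.61-fold (3.85 to 5.54) is the widest among the lower genes, and the other 7 libraries lay within 1.51-fold of each other. Il12a lies on chromosome 3 from 68690644 to 68698547. The ligand chain Il12a and the receptor chain Il12rb1 thus stood on opposite sides of the other libraries.

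In the TNF family 4 of 6 genes were higher (66.7%, against 24.0% of the table, on few genes) and 0 were lower, against 11.8% of the table. Tnfrsf1a, the main receptor for TNF, had 2317 and 2157 in libraries 3 and 4, against 142 to 618 with a median of 275. The gap was 3.49-fold (3.18 to 3.84), and the order below the pair was library 8 at 618, library 9 at 433, libraries 1 and 2 at 304 and 275, and libraries 5, 6 and 7 at 142 to 170. Tnfrsf1b, the second TNF receptor, had 684 and 463 against 68.7 to 217 with a median of 85.3, a gap of 2.14-fold (1.80 to 2.54), again with library 8 nearest. Tnfrsf26, a receptor of the TRAIL-receptor cluster, had 211 and 110 against 1.54 to 25.4 with a median of 6.56 (4.33-fold, 2.91 to 6.58). Tnfrsf18, which encodes the co-stimulatory receptor GITR, had 258 and 323 against 30.8 to 83.7 with a median of 51.0 (3.09-fold, 2.27 to 4.27).

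The gaps of the TNF family ligands with matching names were under 2-fold. Tnfsf14, the ligand LIGHT, had 36.6 and 29.8 against 13.6 to 25.5, a gap of 1.17-fold whose interval (0.578 to 2.47) includes 1. The readthrough gene listed as Tnfsf12Tnfsf13, which shares its exons with the ligand genes TWEAK and APRIL, had 263 and 157 against 13.8 to 122. Libraries 5, 6 and 7 had 13.8 to 22.8 of it and libraries 1, 2, 8 and 9 had 60.8 to 122, so most of its range lay among the libraries other than 3 and 4.

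Csf1, Ccl4, Tgfb3 and Itga3, each the 1 higher gene of its role, passed the filter only through libraries 3 and 4. Csf1, the macrophage growth factor, had 114 and 35.5 in libraries 3 and 4 and at most 6.52 elsewhere, with a median of 1.96. Its 5.44-fold gap had a wide interval (2.24 to 16.0). Ccl4, an inflammatory chemokine, had 25.9 and 13.7 against 0 to 5.07, and its interval (0.983 to 8.12 around a ratio of 2.71) includes 1. Ccl27a, a skin-homing chemokine, had 62.5 and 50.3 against 8.39 to 29.4 and fell short of the limit. Ccl27a lies opposite to Il11ra1 in the same region, and their reads cannot be told apart without strand. Csf2rb, the common beta chain of the interleukin-3, interleukin-5 and GM-CSF receptors, overlapped, with 50.7 and 67.5 in libraries 3 and 4 and 60.1 in library 9. Its close copy Csf2rb2, the interleukin-3-specific beta chain, had 16.5 and 27.5 against 0 to 9.84. Reads that fit both copies make the split between these 2 genes uncertain.

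TGF-beta genes differed from one another. Tgfb1, the ligand that megakaryocytes store and release, had 27.1 and 44.6 in libraries 3 and 4, against 98.1 to 193 with a median of 120 (gap 2.20-fold, 1.42 to 3.43). Tgfb3, a second ligand of the family, had 34.2 and 24.0 against 0 to 7.34 with 4 of the 7 at 0 reads (3.27-fold, 1.34 to 9.12). Tgfbr2, the receptor chain that binds both ligands, had 166 and 110 against 21.5 to 68.9, a gap of 1.59-fold (1.10 to 2.35). The ligand Tgfb1 and its receptor chain thus lay on opposite sides of the other libraries, although under table-total scaling the signed gap of Tgfb1 was -0.49 on the log2 scale, under the limit.

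Both interferon receptor chains had narrow gaps. Ifnar2, a chain of the type I interferon receptor, had 1269 and 1619 in libraries 3 and 4 against 801 to 922 in the other 7. The range over all 9 libraries was 2.02-fold (1.83 to 2.23), the narrowest of the 45 genes, and that over the other 7 was 1.15-fold. Ifngr2, the signalling chain for interferon gamma, had 271 and 232 against 33.6 to 167 and ranged 8.08-fold. Both lay above the other 7 libraries by less than 2-fold.

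Besides the platelet chain Itga2b, which was left out, the table lists only 4 integrin chains, and these were low. Other integrin chains are not listed, so nothing is said of them. Itga6, the laminin receptor chain used as a stem and progenitor marker, had 77.8 and 70.9 against 16.8 to 49.2, a gap of 1.44-fold whose interval (0.918 to 2.31) includes 1. Itga3, another laminin receptor chain, had 22.4 and 13.7 against 0 to 4.19. With the raised floor its gap was 2.33-fold, and the interval of the ratio of 3.28 (0.992 to 13.9) includes 1. Itgal, the alpha chain of the leukocyte integrin LFA-1, overlapped, with 8.26 and 1.14 in libraries 3 and 4 and 4.61 to 25.5 elsewhere. Itgb5 did not pass the filter and was at most 5.89.

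Among 12 CD antigens 5 were higher (41.7%, against 24.0% of the table, on few genes) and 2 lower, against 11.8% of the table. Cd27, a TNF receptor family member that marks multipotent progenitors, had 2725 and 3301 in libraries 3 and 4 against 416 to 901 with a median of 517 (3.03-fold, 2.80 to 3.28). Cd24a, a small glycolipid-anchored adhesion protein, had 3357 and 1880 against 307 to 880 with a median of 499 (2.14-fold, 1.98 to 2.30). Cd72, a lectin-type co-receptor best known from B cells, had 497 and 553 against 24.6 to 136 with a median of 68.7 (3.64-fold, 2.99 to 4.47). These 3 genes were apart from all other libraries, and library 8 or 9 was the nearest in each. The checkpoint ligand Cd276 had 89.7 and 84.7 against 2.80 to 34.04 (2.49-fold, 1.70 to 3.66). Cd1d1, which presents lipids to T cells, had 763 and 658 against 150 to 414, a gap of 1.59-fold.

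The 3 tetraspanins of the set did not go together. Cd9, which is abundant on platelets and their precursors, had 4115 and 4385 in libraries 3 and 4, against 10828 to 24487 with a median of 20976. The gap was 2.47-fold (2.38 to 2.56), with libraries 8 and 9 the lowest of the others at 10828 and 12379. Cd53, the pan-leukocyte tetraspanin, had 773 in library 3 and 5225 in library 4, against 32.2 to 359 with a median of 44.5. Libraries 2 and 9 had 359 and 181 of it and the other 5 had 32.2 to 59.1. The gap of Cd53 was 2.15-fold (1.82 to 2.55), and under median-of-ratios scaling it was 0.52 on the log2 scale, under the limit. Cd82, a tetraspanin linked to stem cell dormancy, had 2557 and 1014 against 99.6 to 612 and a gap of 1.66-fold. It was lowest in library 8, which came nearest to the pair for 9 of the 21 higher genes. Cd9 lies on chromosome 6 from 125460266 to 125494791 and Cd53 on chromosome 3 from 106759921 to 106790149, both protein-coding. Under table-total scaling the gap of Cd9 was -0.95 on the log2 scale, just under the 2-fold limit, in the same direction.

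**Figure D2:**
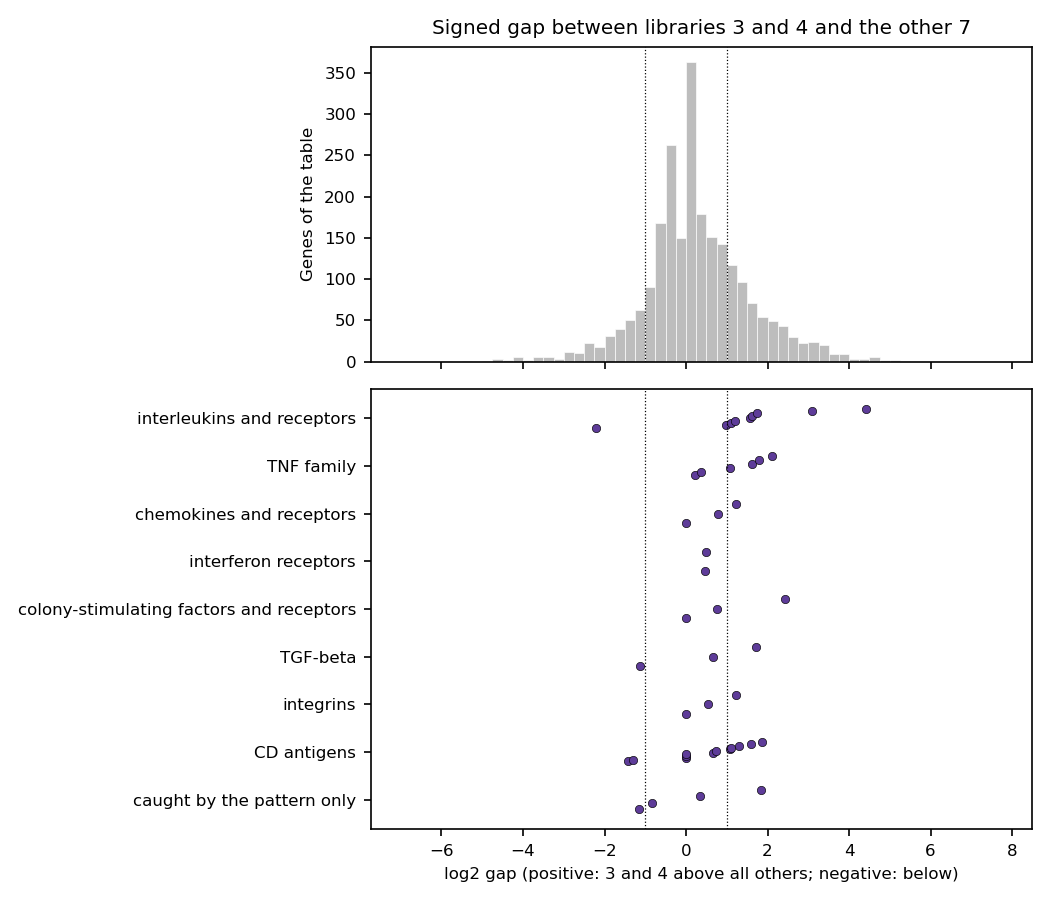
The upper panel counts the 2341 genes of the table that passed the filter by their signed log2 gap between libraries 3 and 4 and the other 7, and the lower panel shows the 45 genes by role (1 point each, spread vertically for sight). Dotted lines mark the 2-fold limit. Interleukin genes and their receptors lie mostly to the right, with 7 of 9 past the limit (Il12rb1 and Il10ra among them passed the filter only through libraries 3 and 4), and Il12a lies at -2.20. Of the genes in the upper panel 24.0% were past the limit on the right.

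A group of 4 surface genes of mature leukocytes had their highest values in libraries 2 and 9 instead. Cd33, a sialic acid-binding lectin of myeloid cells, had 39.2 in library 2 and 28.2 in library 9, and at most 2.17 in any other. Cxcr2, the neutrophil chemokine receptor, had 53.0 and 58.7 there and at most 8.69 elsewhere. Cd300lf, a myeloid inhibitory receptor, had 31.4 and 52.9, against at most 4.19. Cd4, the T cell co-receptor, had 27.5 and 39.8, against at most 10.5. All 4 were at least 2-fold above every other library in both, which held for 17 of the 2341 genes of the table (0.726%) and for 4 of the 45. Libraries 2 and 9 were singled out after these values were seen. Cd33, Cxcr2 and Cd300lf reached 10 normalized counts only in libraries 2 and 9, so they passed the filter only through these libraries. The filter itself thus favoured high values there, and the 4 of 45 cannot be read as support. Itgal had 25.5 and 24.6 in the same libraries, with library 5 next at 15.2. Cd180, a B cell and macrophage relative of the Toll-like receptors, had 60.8 in library 2 but 16.7 in library 9. It was lower in libraries 3 and 4, which had 0 and 2 reads, and the ratio of 4.12 has an interval (0.854 to 39.2) that includes 1.

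Markers of granulocytes and monocytes were partly measured in these libraries, 4 of 15 on the list. Csf1r, the macrophage growth factor receptor, had 64.8 and 82.6 in libraries 2 and 9 and 64.0 in library 1, against 0 to 15.7 elsewhere. The others on the list did not follow it. Csf3r had 84.4 and 119.5 in libraries 2 and 9, but 667.6 and 861.5 in libraries 3 and 4. Cebpa had 41.2 in library 2 but 13.0 in library 9, below the 18.4 to 31.5 of libraries 5, 6 and 7. The summed level of the 4 markers was 1547 and 1982 in libraries 2 and 9, within the 366 to 2142 of libraries 1, 5, 6, 7 and 8. It was 12916 and 12329 in libraries 3 and 4, most of it the neutrophil protease gene Prtn3 at 12248 and 11466. Of the B lineage, macrophage and stromal lists 1, 0 and 0 genes were measured, and the B lineage gene Vpreb1 was at most 12.3. The part of these cells in the values of Cd33, Cxcr2, Cd300lf and Cd4 was not tested.

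**Figure D3:**
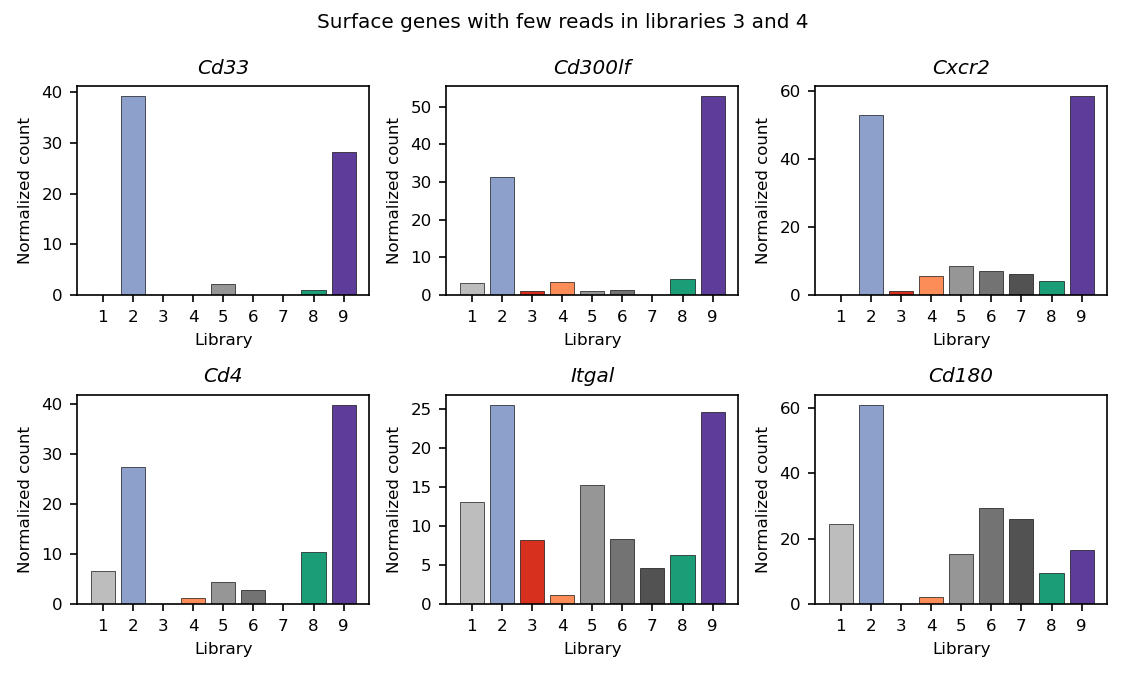
Normalized counts of 6 surface genes in each of the 9 libraries (1 bar a library, no replicates, axes from 0). Cd33, Cd300lf, Cxcr2 and Cd4 are highest in libraries 2 and 9, whereas Itgal and Cd180 are spread over more libraries.

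Another 4 genes of the set carry a matching name but encode none of these proteins. Tnfaip8, a TNF-induced cytoplasmic protein, had 2175 and 2305 in libraries 3 and 4 against 240 to 602 with a median of 491 (3.61-fold, 3.23 to 4.05). Il4i1, a secreted amino acid oxidase, was lower, at 18.9 and 36.6 against 81.8 to 125 (2.23-fold, 1.46 to 3.48). The annotation places Il4i1 over Nup62 on the same strand, so some of its reads may belong to that gene. Cd5l, a macrophage protein, had 0 reads in libraries 3 and 4, which allows up to 3.54 and 3.43 normalized counts, against 6.29 to 39.8. The adaptor Cd2ap was at most 16.5.

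Libraries 3 and 4 were not alike in all of these genes. Cd53 was 6.76-fold higher in library 4 (95% counting interval 6.23 to 7.35), Il10ra 3.55-fold (2.42 to 5.31) and Il4ra 2.18-fold (1.97 to 2.42). Csf1 was 3.23-fold higher in library 3 (2.13 to 5.0), Cd82 2.52-fold (2.33 to 2.73) and Cd24a 1.79-fold (1.68 to 1.90). Tnfrsf1a, Tnfaip8, Cd72, Cd276 and Cd9 differed by 1.06-fold to 1.11-fold between them. Library 3 had the higher value for 12 of the 21 higher genes (57.1%), against 78.3% of the 561 higher genes of the whole table.

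The other 7 libraries were not uniform either. Over these 7 alone, 20 of the 45 genes ranged at least 4-fold (44.4%), against 21.1% of the genes of the table. Library 8 was the nearest to the pair for 9 of the 21 higher genes and library 9 for 5, and libraries 6 and 7 were the nearest for 0. Over the table library 8 was the nearest for 59.7% of the higher genes and library 9 for 15.3%. Of the 5 lower genes 4 came nearest in library 8, against 59.4% of the 276 lower genes of the table, and for Tgfb1 it was library 2.

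**Figure D4:**
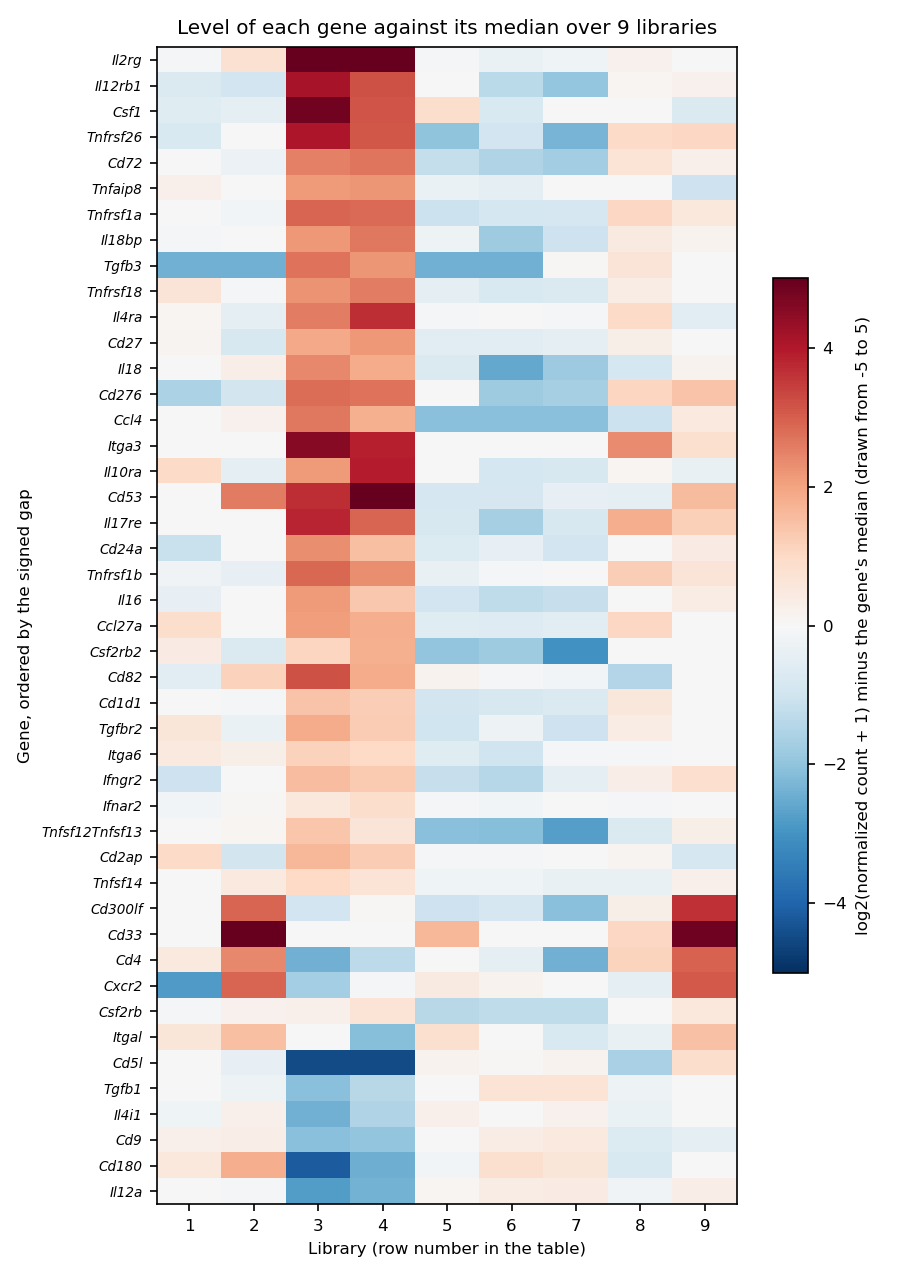
Each line is 1 of the 45 genes, ordered by its signed gap, and each column 1 library. Colour gives the log2 of the normalized count with 1 added, minus the gene's median over 9 libraries, so that red columns 3 and 4 mark the higher genes and the blue cells of the same columns at the bottom mark Il12a, Cd180, Cd9, Il4i1 and Tgfb1, with Cd5l, whose gap was under 2-fold, above them.

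Genes that act downstream of these receptors were counted by the same rule. The counts of these lists are for the deposited scaling only and were not repeated under the other scalings. Of 14 measured JAK-STAT genes 4 were higher (28.6%, near the 24.0% of the table) and 0 lower, against 11.8% of the table. They were Irf1, an interferon-induced transcription factor, at 2070 and 1061 against at most 252, Sh2b3, an inhibitor of cytokine signalling, at 261 and 196 against at most 63.7, Stat4, which acts after interleukin-12, at 1259 and 860 against at most 335, and Stat2, at 97.9 and 103 against at most 47.6. Jak3, the kinase that binds the common gamma chain, had the highest median of the list. It had 4061 and 4939 in libraries 3 and 4 and 2186 in library 8, with 351 to 960 in the remaining 6. The median signed gap of the list was 0.72 on the log2 scale, against 0.05 over the table.

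Of 8 measured NF-kB genes 3 were higher (37.5%, against 24.0% of the table, on few genes) and 0 lower. The higher genes were the adaptor Traf1 (190 and 124 against at most 22.0), the kinase Map3k14 (82.6 and 46.9 against at most 15.7) and Bcl3 (682 and 1277 against at most 269). Nfkbib, an inhibitor of NF-kB and the gene of the list with the highest median, had 530 and 675 in the pair against 934 to 2102. Of the TNF ligands with other names only Ltb was measured, which makes a membrane form of lymphotoxin. It had 7334 and 2266 in libraries 3 and 4 against 20.0 to 93.3.

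In the TGF-beta and SMAD list 5 of the 9 genes that passed the filter were higher (55.6%, against 24.0% of the table) and 0 lower, against 11.8%. Ltbp4 and Smad7 passed only through libraries 3 and 4. Without such genes 3 of 7 were higher, against 394 of 2133 genes of the table. The 5 were Id2, an inhibitor of helix-loop-helix factors (460 and 638 against at most 55.8), Tgif1, a SMAD co-repressor (455 and 263 against at most 50.9), Smad1, the BMP effector (648 and 538 against at most 202), Ltbp4, which binds latent TGF-beta (129 and 49.2 against at most 8.39), and Smad7, an inhibitor of the pathway (28.3 and 14.9 against at most 6.56). Of 13 measured integrin adaptors 1 was higher (7.69%, against 24.0% of the table) and 6 lower, against 11.8% of the table. Rap1b, the GTPase that activates platelet integrins and the list's gene with the highest median, had 5628 and 6624 against 36599 to 68694. Lims1 had 513 and 713 against 5428 to 7596, Rasgrp2 484 and 440 against 2034 to 3594, and Fermt3 9269 and 11817 against 25004 to 34141. Actn1 and Src were the other two lower genes, and Fblim1, an adaptor of filamin, was the higher one at 18.9 and 32.0 against at most 5.89, and it passed the filter only through libraries 3 and 4. The platelet chemokines Pf4 and Ppbp, which the megakaryocyte list also holds, were lower as well, with Pf4 at 899 and 1412 against 17894 to 39766 and Ppbp at 5.90 and 4.58 against 74.4 to 318. Rgs1, a brake on chemokine receptor signalling, was higher at 1919 and 841 against at most 174. Kit and Tie1, the 2 measured receptors of the remaining list, were above all other libraries by less than 2-fold. These values describe the same libraries as those of the 45 genes and are not independent of them.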

How the data were processed

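Per the labels' protocols, Trizol was used for RNA and NEBNext Ultra for the libraries. The values are a signal in 1 table, deposited by the authors, of counts normalized by library for 2402 genes. Bowtie2, STAR, DESeq and mm10 appear, without roles, in the submitters' processing notes. How reads were counted and scaled, whether by strand, and how the genes were chosen is not stated in these sources. Within a row all values were whole multiples of 1 step within a tolerance of 0.1 (100% of values in each library). Dividing by the step gave 1790670 to 4373460 reads a library on these genes, which is not the library depth. Steps and calls were checked on simulated data.

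No row was assigned to a sample, so no test was run. The filter on low values asked for 10 normalized counts or more in 2 libraries. A gap was counted from 2-fold, after raising values to a floor of 3 reads, and only where the unraised values did not overlap. Intervals are exact conditional binomial intervals at 95% on reads. They cover counting error only, and not the choice of the nearest libraries. The genes, lists and rules were chosen with earlier results of these data known. Values of all libraries are described for genes past the limit and for the 3 genes of each role with the highest median, and other genes by level or range. Of the lists, genes past the limit and the one with the highest median are named. Other scalings, filters, limits, Ly6a thresholds and sets of libraries were tried. Symbols of 45 genes matched GENCODE M21, all protein-coding, and 33 had a RefSeq promoter entry. Of the 45, 23 overlap another annotated gene. Python 3.11.15, pandas 2.3.3 and scipy 1.17.1 were used.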

Additional observations from a re-analysis of the deposited data

How the results depend on the processing

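The number of higher genes was 21. It was 11 with median-of-ratios scaling, 11 with at least 10 normalized counts in all 9 libraries (25 genes left), 33 with any gap and 4 with a gap of at least 4-fold. The shares of the table under these settings were 16.3%, 14.3%, 51.0% and 9.48%, in the same order. At the 4-fold limit the 4 of 45 genes were thus close to the share of the table. The number of lower genes was 5, and it was 1 with scaling to the table total and 1 with a gap of at least 4-fold. The number with a smaller gap or an overlap was 19, and it was 10 with at least 10 in all 9 libraries, 6 with any gap, 40 with a gap of at least 4-fold and 12 with a median of at least 10, a filter chosen after seeing the data. Under that filter 15 of 32 genes were higher, against 17.4% of the table. Leaving out 1 library at a time gave 17 to 23 higher genes, 5 to 6 lower ones and 12 to 19 others, and the 12 was without library 4. Of the 21 higher genes 17 were counted as higher in all 9 of these, and Ccl4, Csf1, Itga3 and Tgfb3 were lost without library 3 or 4, since fewer than 2 libraries then reached the filter. All 5 lower genes stayed. Leaving out a library can only keep or widen a gap, so a gene could drop out only through the filter. These numbers therefore do not show how firm the calls are. The median range of the 45 genes was 10.5-fold, 9.65-fold to 10.5-fold with a library left out, 15.8-fold with scaling to the table total, and 18.5-fold with a pseudocount of 1 in place of the raised floor. Both other thresholds tried for Ly6a chose the same 2 libraries. Of 552 gaps of single genes under other settings, 36 moved across the limit. A reversal was counted only for genes past the limit in the main setting, and there were 0. Leaving out a library could not reverse such a gap, so only the other scalings and the pseudocount could have shown one. No paired analysis was possible because the rows carry no replicate numbers and no test was made. Depth limits the genes under about 10 normalized counts, where a few reads decide the gap.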
